A study of Homo sapiens with 16 samples.

Results

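The 10 genes described here encode proteins of the neutrophil granules or are switched on with them: *MPO*, *ELANE*, *PRTN3*, *AZU1*, *CTSG*, *LYZ*, *CFD*, *MS4A3*, *CST7* and *BPI*. They were looked up by gene name, and each matched 1 of the 60357 genes in the deposited count tables of the in vitro libraries. All 10 were among the 15863 genes with at least 600 reads over the 12 libraries. The libraries come from Kasumi-1 and SKNO-1, established human acute myeloid leukaemia (AML) lines with the t(8;21) translocation and its fusion gene RUNX1/ETO. SKNO-1 was grown with the cytokine GM-CSF. Cells of each line were exposed for 24 h to 2 µg/ml of lipid nanoparticles (LNPs) and harvested on day 3. The LNPs held either siRE-mod, a chemically modified siRNA against the fusion transcript (genotype label RUNX1/ETO knockdown), or siMM-mod, its mismatch control (genotype label WT, although these cells carry the fusion as well). Each line has 3 libraries per siRNA label, and the labels do not say whether replicates were separate cultures, so the p-values measure the spread between these libraries, which may be technical. Among the libraries labelled Kasumi-1 siMM-mod and those labelled SKNO-1 siRE-mod, this spread also includes the difference between the expression patterns described below. The comparison by label asks whether loss of RUNX1/ETO alters the granule genes.

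Granule proteins are made in waves as a granulocyte matures. The azurophil (primary) granules are filled first, in promyelocytes, with myeloperoxidase and a family of serine proteases, and the specific and gelatinase granules follow at later stages. RUNX1, C/EBP factors, PU.1 and MYB drive the azurophil genes, and C/EBPε is needed for the later granules. Blasts of t(8;21) AML are arrested around the stage at which the azurophil genes are active and are known for strong myeloperoxidase staining.

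The siRNA labels cross 2 expression patterns, so each value below is given by label and then by the level of *CD34*, a stem and progenitor cell surface protein, and of *RUNX1T1*, which encodes the ETO part of the fusion and whose reads include those of the fusion transcript. Levels are in CPM, the reads of a gene scaled to a fixed number of reads on genes per library and normalized over the 12 libraries. In 6 libraries *CD34* lay between 117 and 421 CPM and *IL5RA*, the interleukin-5 receptor subunit of eosinophils, at 0.179 CPM or less. In the other 6 libraries *CD34* was at 0.627 CPM or less and *IL5RA* between 36.3 and 68.0 CPM. The *CD34*-expressing libraries are all 3 labelled SKNO-1 siMM-mod, the first labelled SKNO-1 siRE-mod, and the first and the second labelled Kasumi-1 siMM-mod. The *CD34*-silent libraries are all 3 labelled Kasumi-1 siRE-mod, the second and the third labelled SKNO-1 siRE-mod, and the third labelled Kasumi-1 siMM-mod. Both patterns therefore hold libraries labelled with either line and with either siRNA. Whether labels or files of some libraries were exchanged was not tested, so Kasumi-1, SKNO-1, siMM-mod and siRE-mod stand below for what the labels say, and each mean, fold change and count by label holds only as far as the labels do.

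Within each pattern *RUNX1T1* took 2 levels. Among the *CD34*-expressing libraries it lay at 297 to 329 CPM in the libraries labelled SKNO-1 siMM-mod 1 and 2 and Kasumi-1 siMM-mod 1, and at 92.9 to 127 CPM in those labelled SKNO-1 siMM-mod 3, SKNO-1 siRE-mod 1 and Kasumi-1 siMM-mod 2. Among the *CD34*-silent libraries it lay at 159 to 165 CPM in those labelled SKNO-1 siRE-mod 2, Kasumi-1 siMM-mod 3 and Kasumi-1 siRE-mod 2, and at 37.3 to 44.4 CPM in those labelled Kasumi-1 siRE-mod 1 and 3 and SKNO-1 siRE-mod 3. Against their labels, the libraries labelled SKNO-1 siMM-mod 3 and Kasumi-1 siMM-mod 2 had the lower *RUNX1T1* of their pattern, and those labelled SKNO-1 siRE-mod 2 and Kasumi-1 siRE-mod 2 had the higher. The 4 sets of 3 libraries formed in this way are sets of measured levels, not groups of the study, so only ranges and overlaps are given for them and no test. Counts on genes ranged from 60559466 to 147990959 per library, at which depth 3 reads correspond to 0.0195 to 0.0468 CPM.

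Promoter sequences are shown for the proteases *PRTN3*, *AZU1* and *CTSG*, which had the same order of levels between the 2 patterns, and for *CFD*, which lies next to *ELANE* and *PRTN3* but whose levels overlapped. They are the 250 bases before the start of the RefSeq transcript (GRCh38.p14), written 5′ to 3′ on the strand of the gene. *PRTN3* lies at chr19:840749-840998 (plus strand), *AZU1* at chr19:827587-827836 (plus strand), *CTSG* at chr14:24576251-24576500 (minus strand) and *CFD* at chr19:859414-859663 (plus strand). Capitals mark matches to a core motif on either strand: TGTGGT for RUNX1, TTNNGNAAT for C/EBP factors and GAGGAA for PU.1.
PRTN3: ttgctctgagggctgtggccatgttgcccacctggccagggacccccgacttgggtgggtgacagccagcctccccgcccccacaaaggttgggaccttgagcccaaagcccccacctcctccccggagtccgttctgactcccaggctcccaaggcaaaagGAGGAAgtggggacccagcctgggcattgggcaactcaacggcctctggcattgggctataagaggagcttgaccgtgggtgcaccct
AZU1: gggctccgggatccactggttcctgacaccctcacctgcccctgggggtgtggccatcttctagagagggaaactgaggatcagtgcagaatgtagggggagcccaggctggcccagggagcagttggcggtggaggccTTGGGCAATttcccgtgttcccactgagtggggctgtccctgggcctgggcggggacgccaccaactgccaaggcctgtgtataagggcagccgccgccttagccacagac
CTSG: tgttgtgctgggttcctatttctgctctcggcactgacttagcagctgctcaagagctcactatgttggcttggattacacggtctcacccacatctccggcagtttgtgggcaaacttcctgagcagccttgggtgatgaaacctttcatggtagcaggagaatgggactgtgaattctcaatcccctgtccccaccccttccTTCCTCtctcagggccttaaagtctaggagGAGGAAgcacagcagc
CFD: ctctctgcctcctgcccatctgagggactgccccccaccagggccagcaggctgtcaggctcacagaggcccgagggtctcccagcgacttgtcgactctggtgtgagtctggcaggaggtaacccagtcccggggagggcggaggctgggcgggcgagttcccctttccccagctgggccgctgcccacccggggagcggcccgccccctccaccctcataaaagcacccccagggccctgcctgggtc
The C/EBP letters were found in *AZU1*, as TTGGGCAAT from 111 to 103 bases before the start. The PU.1 letters were found once in *PRTN3*, from 88 to 83 bases before the start. They were found at 2 places in *CTSG*, from 46 to 41 bases before the start on the opposite strand and from 16 to 11 bases before it. None of the 3 motifs was found in *CFD*, nor in the same window of *MS4A3*, and TGTGGT was found in none of the 5 members with an entry. Over all 35116 promoters of the table, 11% of the windows of this length hold TGTGGT, 9.85% hold the C/EBP letters and 23.6% hold GAGGAA. A match is a description of the letters and not a binding site. The start of *AZU1* in the deposited tables lies upstream of its RefSeq start. *MPO*, *ELANE*, *LYZ*, *CST7* and *BPI* had no entry.

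Compared per length of transcript, in FPKM as deposited, *MPO* stood at the top of the 10 genes with a median of 2169 over the 12 libraries. *PRTN3* followed with 484, *ELANE* with 304, *AZU1* with 89.6 and *CTSG* with 41.8 FPKM. The medians were 26.7 for *CST7*, 18.3 for *CFD*, 11.02 for *LYZ*, 3.09 for *MS4A3* and 1.23 FPKM for *BPI*. The order of neighbours below *MPO* was not the same in all libraries. *PRTN3*, for example, was above *ELANE* in every *CD34*-expressing library, at 940.3 to 2597 against 488 to 1638 FPKM. It was below *ELANE* in every *CD34*-silent one, at 11.6 to 26.9 against 56.8 to 119 FPKM. *CST7* had lower FPKM than *CFD* in every *CD34*-expressing library and higher FPKM than *CFD* in every *CD34*-silent one.

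**Figure D1:**
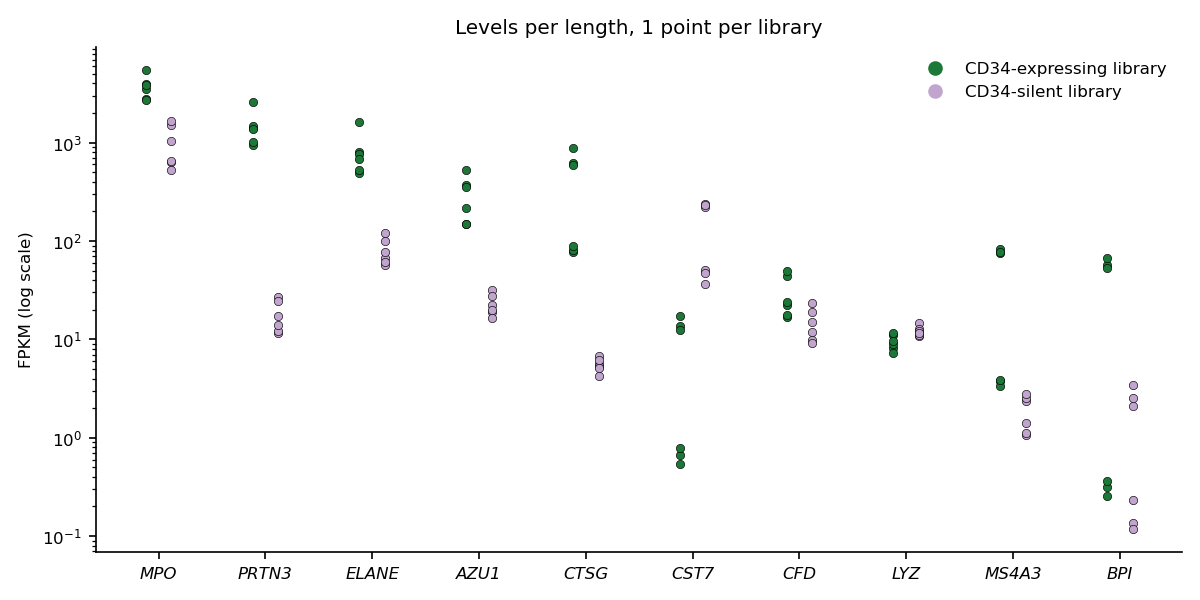
Deposited FPKM (log scale) of the 10 granule protein genes, 1 point per in vitro library, in order of their median, with the 6 *CD34*-expressing libraries in green and the 6 *CD34*-silent ones in purple. *MPO* is the highest gene in all 12 libraries, *LYZ* spans the narrowest range, and *CST7* is the gene whose *CD34*-silent libraries all lie above the *CD34*-expressing ones.

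*MPO* encodes myeloperoxidase, the haem enzyme of the azurophil granules that makes hypochlorous acid (chromosome 17, 58269856 to 58280935, minus strand of GRCh38). *MPO* in Kasumi-1 was at 13092, 22667 and 5750.1 CPM with the label siMM-mod and 1897, 5311 and 2056 CPM with the label siRE-mod (replicates 1 to 3, as in the values that follow). In SKNO-1 it was at 10437, 11146 and 13187 CPM with the label siMM-mod and 13069, 3633 and 1783 CPM with the label siRE-mod. The third library labelled Kasumi-1 siMM-mod was thus close to the second labelled siRE-mod, and the first labelled SKNO-1 siRE-mod was within the range of the SKNO-1 controls. By label the means were 13836 ± 8483 and 3088 ± 1927 CPM in Kasumi-1 and 11590 ± 1428 and 6162 ± 6053 CPM in SKNO-1 (siMM-mod and siRE-mod, SD, n = 3). In order of *CD34*, *MPO* lay at 10437 to 22667 CPM in the 6 *CD34*-expressing libraries and at 1783 to 5750.1 CPM in the 6 *CD34*-silent ones, with no overlap. The lowest levels, 1783 to 2056 CPM, were those of the 3 *CD34*-silent libraries with lower *RUNX1T1*. Of all counts on genes, *MPO* took 1.932% (95% Wilson interval 1.929% to 1.935%) in the second library labelled Kasumi-1 siMM-mod and 0.1846% (0.1839% to 0.1853%) in the third labelled SKNO-1 siRE-mod. The interval covers counting error only. In bulk RNA a smaller share of granule-forming cells and less RNA per cell cannot be told apart, here and in all values that follow.

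The serine proteases of the azurophil granules spanned a wider range than *MPO*, whose highest value was 12.7 times the lowest. This ratio was 33.9 for *ELANE* and 38.6 for *AZU1*. *ELANE* encodes neutrophil elastase (chromosome 19, 851014 to 856247, plus strand). *ELANE* in Kasumi-1 was at 871, 1975 and 131 CPM with the label siMM-mod and 58.3, 94.1 and 71.8 CPM with the label siRE-mod. In SKNO-1, *ELANE* was at 535, 631 and 739 CPM with the label siMM-mod and 681, 58.3 and 60.1 CPM with the label siRE-mod. It was at 535 to 1975 CPM in the *CD34*-expressing and at 58.3 to 131 CPM in the *CD34*-silent libraries, and within neither pattern did the libraries with lower *RUNX1T1* separate from those with higher *RUNX1T1*.

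*PRTN3*, which encodes proteinase 3, the antigen of cytoplasmic anti-neutrophil antibodies, lies just upstream of *ELANE* (chromosome 19, 840999 to 848175, plus strand). *PRTN3* in Kasumi-1 was at 1655, 3373 and 31.8 CPM with the label siMM-mod and 10.9, 24.8 and 13.8 CPM with the label siRE-mod. In SKNO-1, *PRTN3* was at 1110.5, 1322 and 1539 CPM with the label siMM-mod and 1474, 19.1 and 13.0 CPM with the label siRE-mod. The single *CD34*-silent library among the Kasumi-1 controls and the single *CD34*-expressing one among those labelled SKNO-1 siRE-mod stand far from their namesakes. By label this gave 1687 ± 1671 and 16.5 ± 7.37 CPM in Kasumi-1, and 1324 ± 214 and 502 ± 842 CPM in SKNO-1 (siMM-mod and siRE-mod, SD, n = 3). Over the 12 libraries the highest value of *PRTN3* was 311 times the lowest. The 6 *CD34*-silent libraries lay at 10.9 to 31.8 CPM against 1110.5 to 3373 CPM in the others, and within the *CD34*-silent pattern the range was 19.1 to 31.8 CPM with higher and 10.9 to 13.8 CPM with lower *RUNX1T1*.

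*AZU1* encodes azurocidin, a protease relative that has lost its catalytic activity and acts on bacteria and monocytes (chromosome 19, 825097 to 832018, plus strand). *AZU1* in Kasumi-1 was at 404, 1103 and 60.1 CPM with the label siMM-mod and 28.8, 45.4 and 32.0 CPM with the label siRE-mod. In SKNO-1, *AZU1* was at 281, 309.5 and 625 CPM with the label siMM-mod and 617, 39.6 and 28.6 CPM with the label siRE-mod. *AZU1* was again lower in all 6 *CD34*-silent libraries, and its order by *RUNX1T1* differed between the patterns. Among the *CD34*-expressing libraries it was at 281 to 404 CPM with higher and at 617 to 1103 CPM with lower *RUNX1T1*. Among the *CD34*-silent libraries it was at 39.6 to 60.1 CPM with higher and at 28.6 to 32.0 CPM with lower *RUNX1T1*. Neither range overlaps its neighbour, and the difference between the patterns was not tested.

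*CTSG* encodes cathepsin G, the protease of this family with chymotrypsin-like activity, and lies apart from the others (chromosome 14, 24573518 to 24576250, minus strand). *CTSG* in Kasumi-1 was at 127, 1411 and 9.88 CPM with the label siMM-mod and 6.24, 7.05 and 6.34 CPM with the label siRE-mod. In SKNO-1, *CTSG* was at 112, 131 and 808 CPM with the label siMM-mod and 789.8, 5.75 and 8.24 CPM with the label siRE-mod. These values fall into 3 levels. The *CD34*-expressing libraries with lower *RUNX1T1* were at 789.8 to 1411 CPM, those with higher *RUNX1T1* at 112 to 131 CPM, and all *CD34*-silent libraries at 5.75 to 9.88 CPM whatever their *RUNX1T1*. The highest value was 245 times the lowest.

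*LYZ* and *BPI* encode antimicrobial proteins. *LYZ*, which encodes lysozyme, is the member that differed least (chromosome 12, 69348341 to 69354234, plus strand). *LYZ* in Kasumi-1 was at 13.5, 23.9 and 27.8 CPM with the label siMM-mod and 16.4, 20.7 and 18.6 CPM with the label siRE-mod. In SKNO-1, *LYZ* was at 15.5, 18.4 and 18.4 CPM with the label siMM-mod and 16.6, 19.0 and 20.9 CPM with the label siRE-mod. Its highest value was 2.07 times its lowest, and its ranges overlapped in every reading: 13.5 to 23.9 CPM in the *CD34*-expressing and 16.4 to 27.8 CPM in the *CD34*-silent libraries. *LYZ* shares 599 exonic bases with *AC020656.1* on the opposite strand, and since no strand setting of the counting is stated, reads of the overlap cannot be assigned to one of them.

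*BPI* encodes the bactericidal/permeability-increasing protein, which binds the endotoxin of Gram-negative bacteria (chromosome 20, 38304123 to 38337505, plus strand), and had the widest range of the members, with a highest value 732 times the lowest. *BPI* in Kasumi-1 was at 0.964, 197 and 0.368 CPM with the label siMM-mod and 4.42, 0.269 and 5.79 CPM with the label siRE-mod. In SKNO-1, *BPI* was at 0.686, 0.925 and 137 CPM with the label siMM-mod and 129.9, 0.586 and 8.25 CPM with the label siRE-mod. The 3 high values belong to the *CD34*-expressing libraries with lower *RUNX1T1*, at 129.9 to 197 CPM, while those with higher *RUNX1T1* were at 0.686 to 0.964 CPM. In the *CD34*-silent libraries *BPI* was also higher where *RUNX1T1* was lower, at 4.42 to 8.25 against 0.269 to 0.586 CPM. The lowest level rests on 35 reads. *BPI* shares 247 exonic bases with *AL359555.3* and *AL359555.1*, the latter on the opposite strand.

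*CFD* encodes complement factor D, a serine protease of the alternative complement pathway and the fourth member of the chromosome 19 cluster (859643 to 863630, plus strand). *CFD* in Kasumi-1 was at 57.2, 70.8 and 30.6 CPM with the label siMM-mod and 12.4, 21.2 and 16.4 CPM with the label siRE-mod. In SKNO-1, *CFD* was at 29.4, 34.5 and 19.6 CPM with the label siMM-mod and 21.0, 12.1 and 10.9 CPM with the label siRE-mod. It ran from 19.6 to 70.8 CPM in the *CD34*-expressing libraries and from 10.9 to 30.6 CPM in the *CD34*-silent ones, and these ranges overlap. Within each of the 4 sets of 3 libraries the highest *CFD* value was that of a library labelled Kasumi-1. The same held for *MPO*, *ELANE*, *PRTN3* and *AZU1*, so it is not particular to *CFD*. Both *CD34*-silent sets hold more libraries labelled Kasumi-1 than SKNO-1, and the share of all genes with this order was not computed.

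*MS4A3*, a four-pass membrane protein gene of the family of CD20 that marks granulocyte and monocyte progenitors, is not itself a granule enzyme (chromosome 11, 60056587 to 60071115, plus strand). *MS4A3* in Kasumi-1 was at 8.50, 187 and 3.14 CPM with the label siMM-mod and 4.19, 2.15 and 5.27 CPM with the label siRE-mod. In SKNO-1, *MS4A3* was at 8.30, 8.24 and 162 CPM with the label siMM-mod and 153, 2.23 and 5.07 CPM with the label siRE-mod. As for *BPI*, the 3 libraries at 153 to 187 CPM were the *CD34*-expressing ones with lower *RUNX1T1*, followed by 8.24 to 8.50 CPM in those with higher *RUNX1T1*. The *CD34*-silent libraries were at 4.19 to 5.27 CPM with lower and at 2.15 to 3.14 CPM with higher *RUNX1T1*.

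*CST7* encodes cystatin F, a lysosomal inhibitor of the cathepsin C that activates the granule proteases (chromosome 20, 24949269 to 24959928, plus strand), and ran the other way. *CST7* in Kasumi-1 was at 0.733, 17.9 and 48.6 CPM with the label siMM-mod and 167, 38.2 and 189 CPM with the label siRE-mod. In SKNO-1, *CST7* was at 0.629, 0.564 and 11.6 CPM with the label siMM-mod and 10.8, 32.3 and 205 CPM with the label siRE-mod. Its order was a ladder without overlap: 0.564 to 0.733 CPM in the *CD34*-expressing libraries with higher *RUNX1T1*, 10.8 to 17.9 in those with lower *RUNX1T1*, 32.3 to 48.6 in the *CD34*-silent libraries with higher *RUNX1T1* and 167 to 205 CPM in those with lower *RUNX1T1*. The highest value was 364 times the lowest, which rests on 39 reads.

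**Figure D2:**
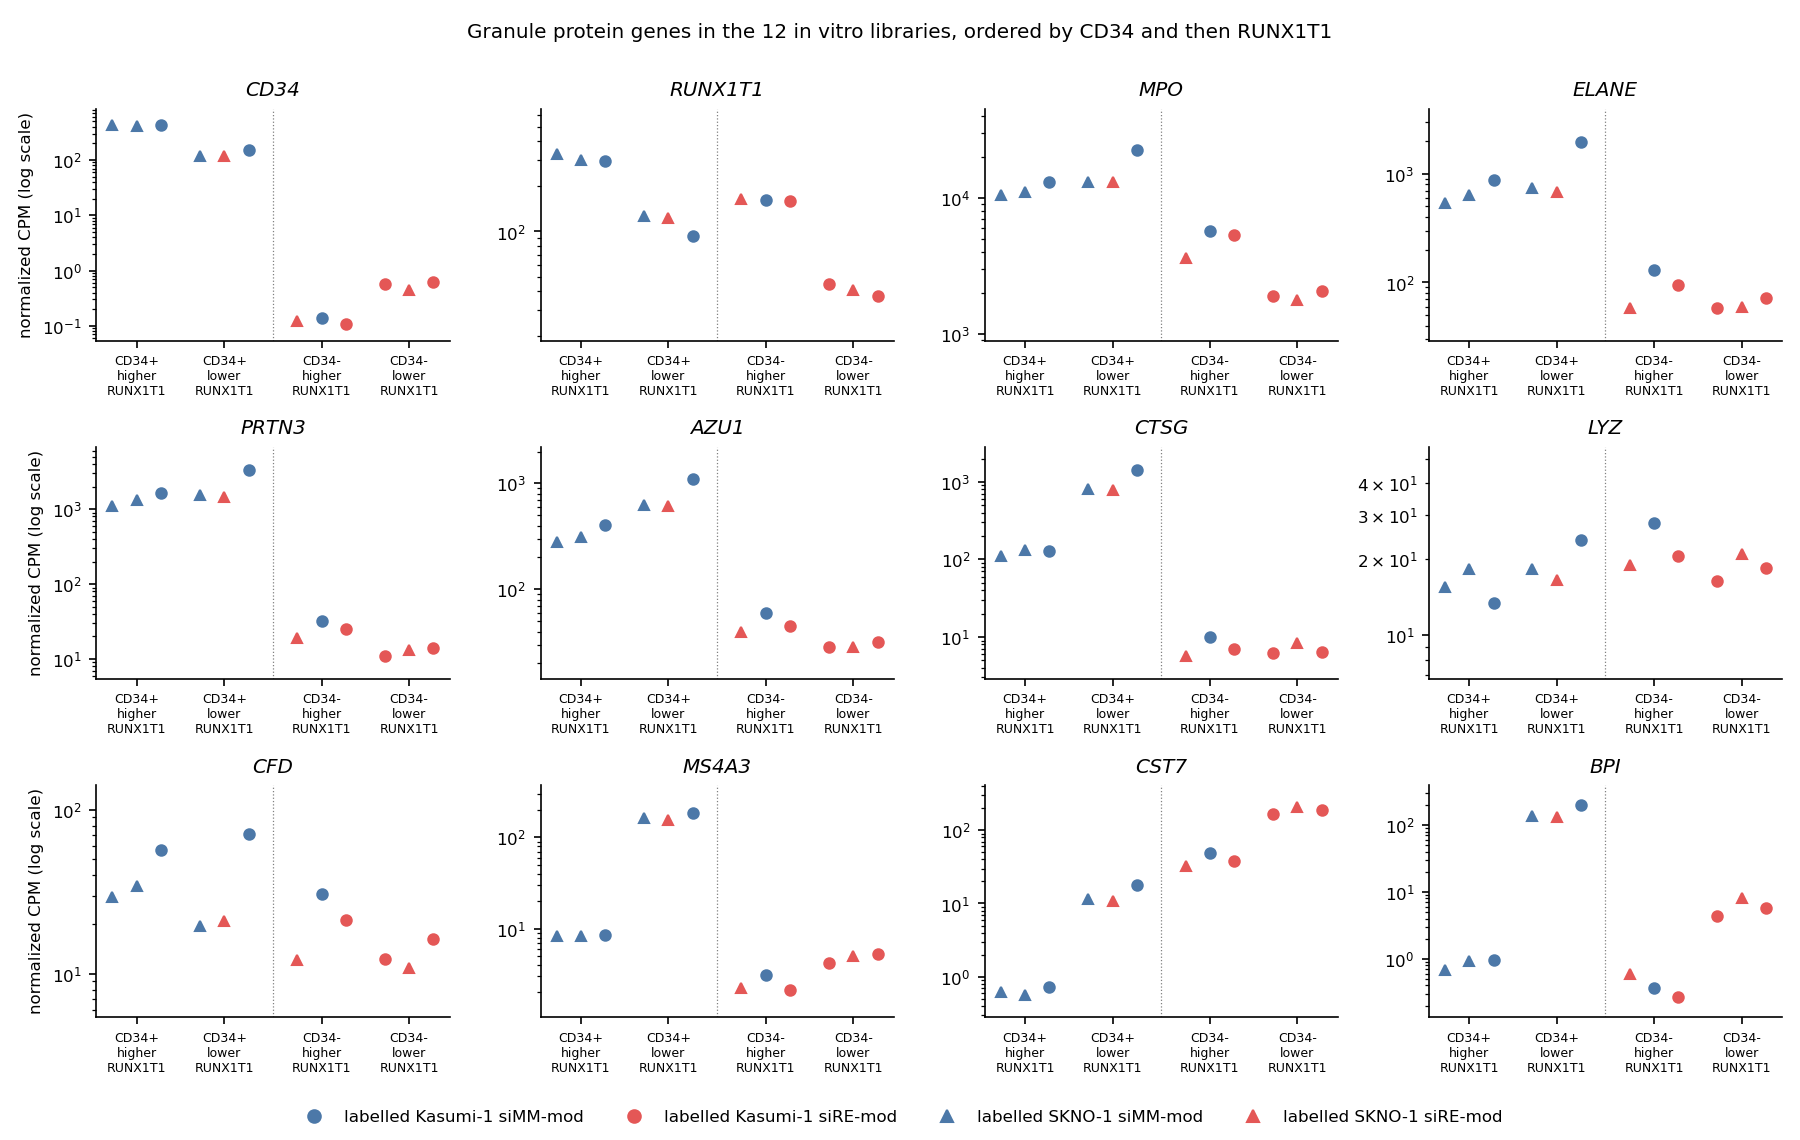
Normalized CPM (log scale, a separate axis for each gene) of *CD34*, *RUNX1T1* and the 10 granule protein genes in the 12 in vitro libraries, ordered by *CD34* and then by *RUNX1T1* (*CD34*+ and *CD34*- stand for *CD34*-expressing and *CD34*-silent), with circles for Kasumi-1, triangles for SKNO-1, blue for the label siMM-mod and red for siRE-mod. *MPO*, *ELANE*, *PRTN3*, *AZU1*, *CTSG* and *MS4A3* are lower in all 6 *CD34*-silent libraries, *CST7* is higher in all of them, and *AZU1*, *CTSG*, *MS4A3*, *CST7* and *BPI* are higher in the *CD34*-expressing libraries with lower *RUNX1T1*.

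Counted over the members, 6 of 10 (*MPO*, *ELANE*, *PRTN3*, *AZU1*, *CTSG* and *MS4A3*) were lower in every *CD34*-silent than in every *CD34*-expressing library. The same held for 15.6% of the 15863 genes with at least 600 reads, and the percentages given beside later counts are likewise shares of all genes compared. One member, *CST7*, was higher without overlap, beside 17.5% of the genes, and *LYZ*, *CFD* and *BPI* overlapped. Within the *CD34*-expressing libraries, 5 of 10 members (*AZU1*, *CTSG*, *MS4A3*, *CST7* and *BPI*) were higher without overlap in the 3 libraries with lower *RUNX1T1*, beside 18.1% of the genes, and 0 were lower, beside 20.1%. Within the *CD34*-silent libraries, 3 members (*MS4A3*, *CST7* and *BPI*) were higher with lower *RUNX1T1*, beside 21.7% of the genes. There, 3 others (*MPO*, *PRTN3* and *AZU1*) were lower, beside 21.6%. Both of these counts in the *CD34*-silent libraries are near the shares of all genes. *MS4A3*, *CST7* and *BPI* were the members higher with lower *RUNX1T1* in both patterns, and the share of all genes with that order was not computed. Summed over the 10 genes, the level lay between 12530 and 31026 CPM in the *CD34*-expressing and between 2143 and 6094 CPM in the *CD34*-silent libraries, most of it reads of *MPO*.

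Read by label, 6 of 10 members in Kasumi-1 (*MPO*, *ELANE*, *PRTN3*, *AZU1*, *CTSG* and *CFD*) and 0 in SKNO-1 separated the siRE-mod labels from the siMM-mod labels without overlap, beside 21.5% and 11.9% of the genes. In the quasi-likelihood test of edgeR, adjusted by Benjamini and Hochberg, no member and no gene passed an adjusted p of 0.05 in Kasumi-1 (0% of 13608 genes tested) or in SKNO-1 (0% of 13628) or for the difference between the lines (0% of 15863). At an unadjusted p under 0.05 there were 7 members in Kasumi-1 (the same 6 and *MS4A3*), beside 17.9% of the genes, 2 in SKNO-1 (*CFD* and *CST7*), beside 10.7%, and 0 members among the 106 genes for the difference. In DESeq2, 6 members (*MPO*, *ELANE*, *PRTN3*, *AZU1*, *CTSG* and *CFD*) were lower at an adjusted p under 0.05 in Kasumi-1, beside 6.97% of the genes, and 0 in SKNO-1, beside 0.132%. DESeq2 gave no adjusted p for *MS4A3* and *BPI* in Kasumi-1.

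The fold changes (siRE-mod over siMM-mod, log2, 3 libraries against 3) exceeded their SE in size for 9 of 10 members in Kasumi-1, *LYZ* being the exception. The SE was computed from the F statistic of the edgeR test, so this only restates that statistic. *PRTN3* had -6.68 ± 1.65 (SE) with an adjusted p of 0.252, *CTSG* -6.30 ± 1.81, *AZU1* -3.89 ± 1.02, *ELANE* -3.74 ± 0.95, *MPO* -2.17 ± 0.65 and *CFD* -1.67 ± 0.37, all with the same adjusted p. *MS4A3* had -4.10 ± 1.61 (SE) with an adjusted p of 0.27. *CST7*, the single member above 0, had 2.57 ± 1.34 (SE) with an adjusted p of 0.353. *BPI* had -4.25 ± 2.48 (SE) with an adjusted p of 0.388 and *LYZ* -0.22 ± 0.28 (SE) with an adjusted p of 0.671. The median of the 10 members was -3.81, beside 0.02 over all genes tested.

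In SKNO-1 the same contrast gave 4.23 ± 1.68 (SE) with an adjusted p of 0.466 for *CST7* and -0.92 ± 0.35 for *CFD*. *MPO* had -0.90 ± 0.70 (SE) with an adjusted p of 0.646. *ELANE* had -1.24 ± 0.99, *PRTN3* -1.38 ± 1.65, *AZU1* -0.81 ± 1.18, *CTSG* -0.38 ± 1.83, *MS4A3* -0.15 ± 1.82 and *LYZ* 0.11 ± 0.21 (SE), with adjusted p-values from 0.66 to 0.988. *BPI* was at 0.0023 ± 2.30 with an adjusted p of 1.00. The median was -0.59, beside 0.03 over all genes tested. For the difference between the lines (SKNO-1 less Kasumi-1), all 10 members had values above 0, while 35.8% of all genes tested were below 0. The largest were *CTSG* at 5.91 ± 2.74 and *PRTN3* at 5.28 ± 2.40 (SE), each with an adjusted p of 1.00. The median of the members was 2.77, and 0.34 without the first library labelled SKNO-1 siRE-mod. With 1 library left out the lowest values were 0.64 for *CTSG* and 0.30 for *PRTN3*.

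The counts of members passing depend on 2 libraries. Without the third library labelled Kasumi-1 siMM-mod, 7 members passed as lower in Kasumi-1 (*MPO*, *ELANE*, *PRTN3*, *AZU1*, *CTSG*, *CFD* and *MS4A3*), beside 15.7% of the genes, with *PRTN3* at -7.25. Without the first library labelled SKNO-1 siRE-mod, 6 members passed as lower in SKNO-1 (*MPO*, *ELANE*, *PRTN3*, *AZU1*, *CTSG* and *CFD*), beside 8.55% of the genes, with *PRTN3* at -6.39. In both of these fits every library labelled siMM-mod is *CD34*-expressing and every one labelled siRE-mod is *CD34*-silent. The direction of *BPI* in Kasumi-1 turned without the second library labelled siMM-mod, at 2.39. In SKNO-1 the directions of *CTSG* and *MS4A3* turned without the third library labelled siMM-mod, at 1.19 and 2.74, and without the second or the third labelled siRE-mod. *BPI* in SKNO-1 was at -3.46 without the first library labelled siRE-mod.

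**Figure D3:**
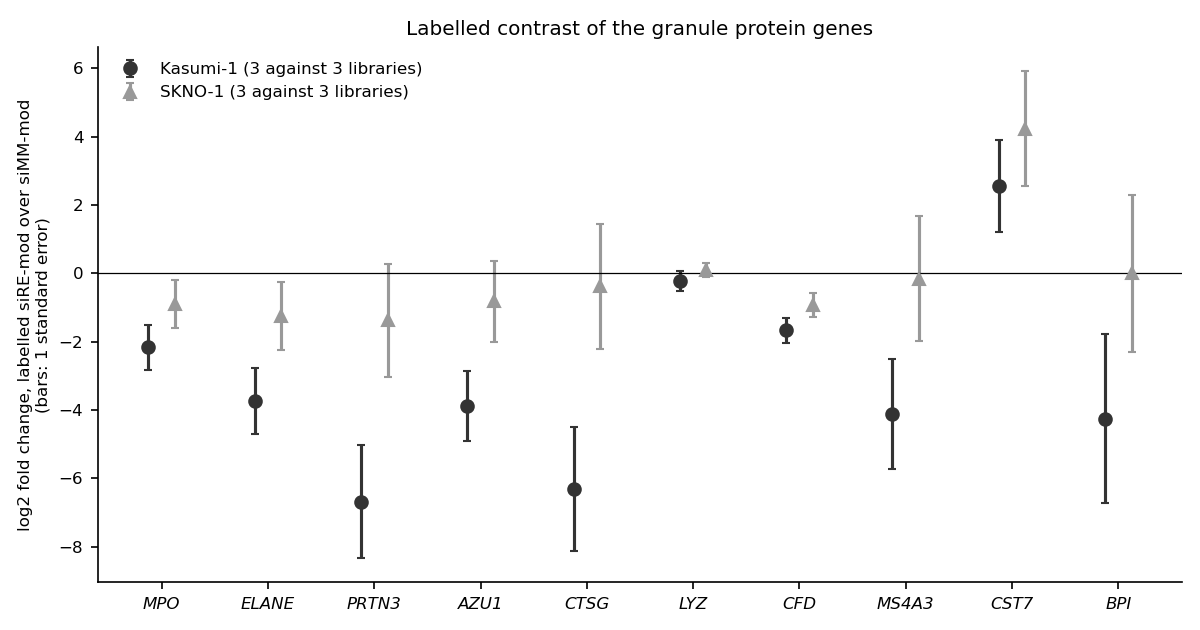
Log2 fold change of the 10 granule protein genes, libraries labelled siRE-mod over those labelled siMM-mod, in Kasumi-1 (dark circles) and SKNO-1 (grey triangles), with 3 libraries per label. Bars are 1 SE, computed from the F statistic of the edgeR test. In Kasumi-1 9 of 10 members lie below 0, from -0.22 for *LYZ* to -6.68 for *PRTN3*, *CST7* lies above 0 in both lines, and no point passed the adjusted threshold.

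*AZU1*, *PRTN3*, *ELANE* and *CFD* lie side by side in this order within 38.5 kb of chromosome 19. Within 100 kb on either side the tables list 15 other genes, of which 6 had at least 600 reads. *PLPPR3*, the neighbour on the *AZU1* side, was at 75.8 to 196 CPM in the *CD34*-expressing and 10.9 to 54.0 CPM in the *CD34*-silent libraries, without overlap. *ARID3A*, a transcription factor gene farther out on the *CFD* side, was likewise lower in the *CD34*-silent libraries, at 7.87 to 18.7 against 47.2 to 77.6 CPM. *PTBP1*, *MED16*, *R3HDM4* and *PALM* overlapped, as *CFD* did. Of the 6 other genes, 2 were thus lower without overlap, beside 15.6% of all genes with at least 600 reads.

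**Figure D4:**
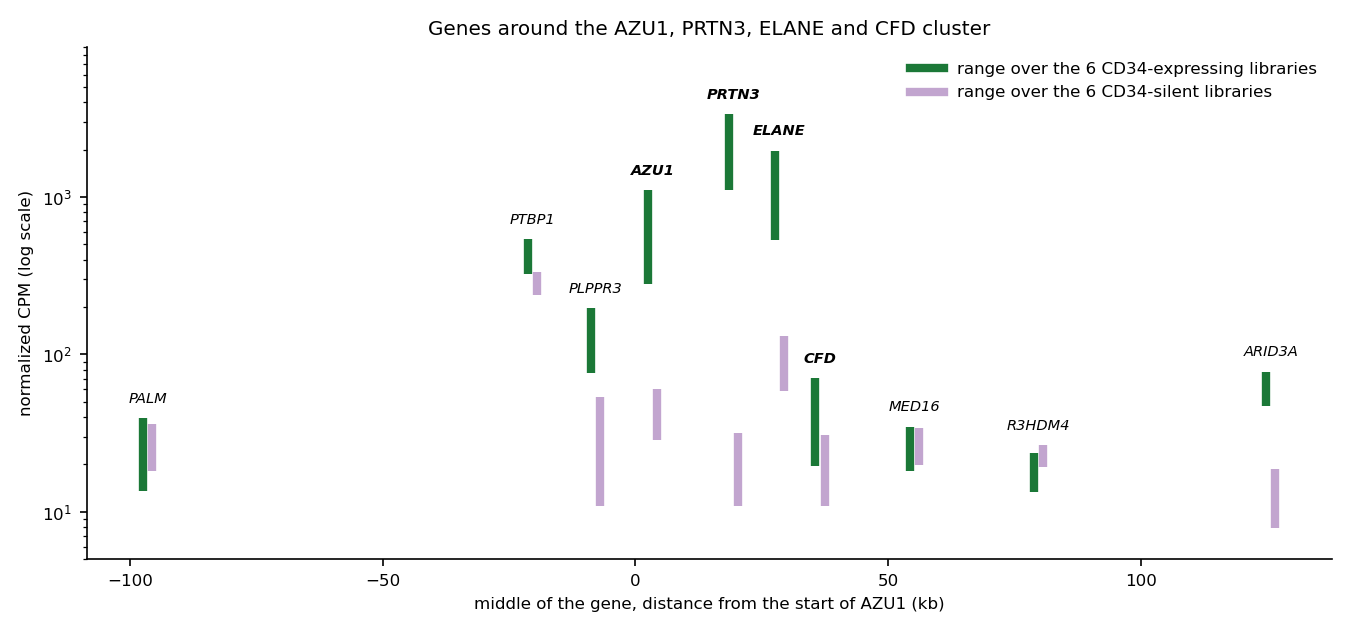
Normalized CPM (log scale) of the 10 genes with at least 600 reads around the granule protease cluster of chromosome 19, placed by the distance of their middle from the start of *AZU1* (kb), with bars for the range over the 6 *CD34*-expressing (green) and the 6 *CD34*-silent libraries (purple) and members in bold. *AZU1*, *PRTN3*, *ELANE*, *PLPPR3* and *ARID3A* have separate bars, with *PRTN3* the farthest apart at 1110.5 to 3373 against 10.9 to 31.8 CPM, and the bars of the other 5 overlap.

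Of 8 other genes of the azurophil granules or their relatives, 5 had at least 600 reads. In the *CD34*-silent libraries 0 of these were higher and 0 lower without overlap, beside 17.5% and 15.6% of the genes. *PRSS57*, which encodes a further azurophil protease (NSP4), was at 197 to 555 and 109.8 to 226 CPM in the 2 patterns. With lower *RUNX1T1*, 2 of the 5 were higher without overlap among the *CD34*-expressing libraries, beside 18.1% of the genes. Among the *CD34*-silent ones 3 were higher, beside 21.7%, and 0 were lower in either pattern, beside 20.1% and 21.6%. *RNASE2* and *RNASE3*, which encode the eosinophil ribonucleases EDN and ECP, were higher in both patterns. The share of all genes with that order in both was not computed, here and for the genes below. *RNASE2* was at 27.4 to 31.1 and 121 to 183 CPM in the *CD34*-expressing and at 10.9 to 18.6 and 116 to 135 CPM in the *CD34*-silent libraries (higher, then lower *RUNX1T1*). *RNASE3* followed with 1.99 to 2.66, 20.2 to 30.1, 0.494 to 0.986 and 6.22 to 6.53 CPM in the same order. *CD63*, a membrane protein of azurophil granules, reached 427 to 522 CPM in the *CD34*-silent libraries with lower *RUNX1T1*, and *GUSB*, a lysosomal enzyme gene, stayed between 87.3 and 169 CPM. The α-defensin genes *DEFA1* and *DEFA3* did not exceed 0.0326 CPM, and *DEFA4* had 0 reads in all libraries. None of the 5 passed in either line by label, and their median log2 fold changes were -0.50 (Kasumi-1) and 0.07 (SKNO-1).

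The genes of the later granules were low. Of 18 specific and gelatinase granule genes, 0 reached 16 CPM in any library. *LTF* (lactoferrin), *LCN2* (lipocalin) and *MMP8* (neutrophil collagenase) stayed at or under 0.0231 CPM, *CAMP* (cathelicidin) and *MMP9* (gelatinase) at or under 0.111 CPM, with the highest value of the list, 5.41 CPM, in *PTX3*. Their summed level was 5.04 to 13.2 CPM in the *CD34*-expressing and 5.85 to 8.19 CPM in the *CD34*-silent libraries. Counted for the 6 that had 600 reads or more, 2 were higher without overlap in the *CD34*-silent libraries, beside 17.5% of the genes. Another 3 were lower, beside 15.6%, and *ARG1* (arginase) overlapped. A gene this low can reach 600 reads through the libraries of a single pattern and then tends to separate the patterns, so nothing is concluded from these counts. *TCN1*, which encodes the cobalamin-binding haptocorrin, was at 0.0128 to 0.0596 and 1.14 to 3.33 CPM and *PTX3*, a pentraxin, at 0.104 to 0.204 and 2.26 to 5.41 CPM (*CD34*-expressing, then *CD34*-silent). The 3 lower genes were *OLFM4*, *SLPI*, a protease inhibitor at 1.59 to 2.90 and 0 to 0.0248 CPM, and *CYBB*, an NADPH oxidase subunit at 0.983 to 2.32 and 0 to 0.470 CPM. *OLFM4* and *CHI3L1* were highest in the *CD34*-expressing libraries with lower *RUNX1T1*, at 3.45 to 3.76 and 1.22 to 1.31 CPM, and had 0 reads in the *CD34*-silent ones.

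Of 9 genes for the processing, storage and sorting of granule proteins, 8 had at least 600 reads. Without overlap, 3 of them (*CTSC*, *CTSL* and *CTSH*) were higher in the *CD34*-silent libraries, beside 17.5% of the genes. Only 1, *LYST*, was lower, beside 15.6%. *CTSC*, which encodes the cathepsin C that trims the serine proteases into their active form, was at 192 to 242 and 295 to 394 CPM (*CD34*-expressing, then *CD34*-silent). *CTSH* was at 6.11 to 8.75 and 45.1 to 73.4 CPM. *LYST*, the gene of the Chédiak-Higashi syndrome of giant granules, was at 567 to 880.0 and 38.6 to 76.1 CPM. *SRGN* encodes serglycin, the proteoglycan on which azurophil proteins are stored, and was higher with lower *RUNX1T1* in both patterns, at 43.8 to 54.3, then 147 to 192 CPM among the *CD34*-expressing and 159 to 229, then 615 to 860.2 CPM among the *CD34*-silent libraries. With lower *RUNX1T1*, 2 of the 8 were higher and 2 lower without overlap among the *CD34*-expressing libraries, beside 18.1% and 20.1% of the genes. Among the *CD34*-silent ones 3 were higher and 3 lower, beside 21.7% and 21.6%. *AP3B1*, *NBEAL2* and *HAX1*, of which *AP3B1* and *HAX1* are mutated in forms of congenital neutropenia, overlapped between the patterns. By label 0 of the 8 passed in either line, with medians of 0.20 and 0.32.

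Protease inhibitors lay in both directions. Of 8 with at least 600 reads, *SERPINA1* and *CST3* were higher without overlap in the *CD34*-silent libraries, beside 17.5% of the genes. *SERPINB8* and *SERPINB10* were lower, beside 15.6%. *SERPINB1*, the cytosolic inhibitor of elastase, proteinase 3 and cathepsin G, was at 538 to 757 CPM in the *CD34*-expressing libraries, at 516 to 684 CPM in the *CD34*-silent libraries with higher and at 192 to 269 CPM in those with lower *RUNX1T1*. *SERPINB6*, which also inhibits cathepsin G, was likewise lowest in the last of these sets, at 77.6 to 113, 93.4 to 117 and 39.1 to 41.6 CPM. *SERPINA1*, which encodes α1-antitrypsin, was at 2.40 to 7.24 CPM in the *CD34*-expressing and at 21.4 to 82.1 CPM in the *CD34*-silent libraries. The cystatin genes *CST3* and *CSTA* reached 148 and 46.2 CPM, both in *CD34*-silent libraries, and *CSTB* was at 29.3 to 93.4 CPM overall. None of the 8 passed by label.

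Of 12 transcription factor genes of the granulocytic lineage, 11 had at least 600 reads. *IRF8*, *CUX1* and *RUNX1* were lower without overlap in the *CD34*-silent libraries, beside 15.6% of the genes, and 0 were higher, beside 17.5%. *RUNX1*, whose reads include part of the fusion transcript, was at 383 to 411, 296 to 317, 249 to 274 and 141 to 156 CPM in the order used above. *CEBPE*, which encodes C/EBPε, was higher with lower *RUNX1T1* in both patterns, at 13.9 to 19.99 and then 71.2 to 145 CPM in the *CD34*-expressing and 13.4 to 24.9 and then 78.9 to 87.8 CPM in the *CD34*-silent libraries. The same order held for *SPI1*, which encodes PU.1, at 76.4 to 92.6 and 115 to 189 CPM, then 76.0 to 135 and 181 to 197 CPM. With lower *RUNX1T1*, 5 of the 11 were higher and 1 lower without overlap among the *CD34*-expressing libraries, beside 18.1% and 20.1% of the genes. Among the *CD34*-silent ones 3 were higher and 2 lower, beside 21.7% and 21.6%. *MYB* was highest in the *CD34*-expressing libraries with lower *RUNX1T1*, at 868 to 875 CPM beside 514 to 526 CPM with higher *RUNX1T1* and 545 to 684 CPM in the *CD34*-silent libraries. *GFI1*, a repressor mutated in a form of neutropenia that also involves *ELANE*, stayed between 159 and 238 CPM and *CBFB* between 62.6 and 127 CPM. *CEBPD* and *CEBPB* reached 27.1 and 19.1 CPM, and *CEBPA* stayed at or under 7.16 CPM. By label 0 of the 11 passed in either line.

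Paralogs near the members were compared because reads of close copies can be split. *LPO*, the lactoperoxidase gene beside *MPO*, was at 25.8 to 60.7 and 1.47 to 7.71 CPM in the *CD34*-expressing and *CD34*-silent libraries and thus lower without overlap in the latter, as *MPO* was. *EPX*, the eosinophil peroxidase gene, went the other way, at 0.171 to 0.462 and 1.15 to 3.32 CPM. The granzyme and chymase genes beside *CTSG* (*GZMB*, *GZMH* and *CMA1*) did not exceed 0.104 CPM. The list held 5 genes with at least 600 reads. In the *CD34*-silent libraries 2 (*EPX* and *CST3*) were higher without overlap, beside 17.5% of the genes. *EPX* can reach 600 reads through the *CD34*-silent libraries, so nothing is concluded from its place in this count. Another 2 (*LPO* and *MS4A7*) were lower, beside 15.6%.

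Among 7627 genes with a mean of at least 16 CPM, the genes whose profile over the 12 libraries lay closest to the mean of *ELANE*, *PRTN3* and *AZU1* were *RET*, *TANC2*, *PLD4*, *BMPR2* and *RPS28P7*. The measure was the root mean square difference of log2 CPM centred on each gene's mean, at 0.44, 0.45, 0.51, 0.54 and 0.56. *RET*, a receptor tyrosine kinase gene, ran from 2.20 to 105.7 CPM. *RPS28P7* is a pseudogene of a ribosomal protein gene, so its reads may belong to the parent. By the same measure *AZU1* itself was at 0.46, *ELANE* at 0.58, *CTSG* at 0.97, *PRTN3* at 0.99 and *MPO* at 1.24, and *MS4A3*, *CFD*, *LYZ*, *BPI* and *CST7* followed at 1.52 to 4.99. The genes closest to *LYZ* were *DHRS7*, *ATP6AP2*, *TMEM59*, *PLEKHA2* and *SERINC3*, at 0.11 to 0.15.

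Markers of other cell types were read beside these levels. Of 10 monocyte markers, *CD14* and *CD163* stayed at or under 0.0718 CPM, and the summed level was 32.7 to 48.3 CPM in the *CD34*-expressing and 11.7 to 16.9 CPM in the *CD34*-silent libraries, most of it from *FCGR1A* and *CSF1R*. Both of these were lower without overlap in the *CD34*-silent libraries. Of 5 monocyte markers with at least 600 reads, 4 were higher with lower *RUNX1T1* among the *CD34*-expressing libraries, beside 18.1% of the genes. There 1, *FCGR1A*, was lower, beside 20.1%. Among the *CD34*-silent libraries 3 were higher, beside 21.7%, and 1, *CSF1R*, was lower, beside 21.6%. Lower in level, *S100A8*, *S100A9* and *ITGAM* overlapped between the patterns and were higher with lower *RUNX1T1* in both. *ITGAM*, the CD11b integrin gene, was at 0.231 to 0.597 and 2.59 to 3.00 CPM, then 0.845 to 1.05 and 3.18 to 3.74 CPM, *S100A8* reached 2.22 CPM and *S100A9* 1.90 CPM. Erythroid markers summed to 7.66 CPM or less and lymphoid markers to 3.16 CPM or less in every library. Of 10 eosinophil and mast cell markers, 9 had at least 600 reads and 7 were higher without overlap in the *CD34*-silent libraries, beside 17.5% of the genes. These 7 include *IL5RA*, which was used above to describe the patterns, so its separation is not a further result. Others, such as *CLC* and *EPX*, were close to 0 CPM in the *CD34*-expressing libraries. Such a gene can reach 600 reads through the *CD34*-silent libraries and then tends to separate the patterns, so nothing is concluded from this count. The summed level was 65.4 to 386 CPM in the *CD34*-silent and 2.56 to 206 CPM in the *CD34*-expressing libraries. With lower *RUNX1T1*, 6 of the 9 were higher and 1 lower without overlap in each pattern, beside 18.1% and 20.1% of the genes among the *CD34*-expressing libraries. Among the *CD34*-silent ones the shares were 21.7% and 21.6%. *PRG2*, the major basic protein gene of eosinophil granules, was at 0.217 to 0.271, 156 to 194, 6.19 to 10.1 and 74.4 to 88.9 CPM in the order used above, and thus higher in both patterns. *CPA3*, the mast cell carboxypeptidase gene, was at 0.843 to 1.53, 7.16 to 8.38, 12.7 to 17.7 and 121 to 135 CPM in the same order. *CLC*, the Charcot-Leyden crystal protein gene, reached 64.3 to 80.8 CPM in the *CD34*-silent libraries with lower *RUNX1T1* and at most 0.383 CPM in the *CD34*-expressing ones. The part of these markers in the levels of the granule genes was not tested. Of the t(8;21) blast markers, *KIT* was at 682 to 999 and 97.0 to 516 CPM, *CD33* at 38.1 to 76.4 and 45.1 to 71.7 CPM in the 2 patterns, *BAALC* reached 19.0 CPM, and *PROM1* had 0 reads in all libraries. In the 4 libraries of Kasumi-1 cells taken from mice all 10 members are listed at 0, as are *ACTB* and *GAPDH*, with 5571 to 10266 reads on genes per library, so no level is given for them.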

How the data were processed

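RNA-seq of 12 in vitro libraries (3 per cell line and siRNA label) was analysed. The authors trimmed reads with Trim Galore 0.6.5, aligned them to GRCh38 with STAR 2.7.10a and counted them over exons per gene with Subread 1.6.5 (versions from the submitters' processing notes). A strand setting is not given in the sources used here. The deposited tables hold raw counts per gene, CPM and FPKM. Counts were analysed, deposited FPKM served to compare levels between genes, and the deposited CPM were not used. Normalized CPM were computed from the counts with TMM factors over the 12 libraries, which ranged from 0.854 to 1.19. The in vivo tables hold raw counts as deposited by the authors, and no comparison was made on them.

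Libraries labelled siRE-mod and siMM-mod were compared in each line, and the difference between the lines as an interaction, with the quasi-likelihood test of edgeR 4.0.16 in R 4.3.3 on genes with at least 600 reads in total, the filter of the study. P-values were adjusted over all genes tested by the Benjamini-Hochberg method (threshold 0.05). The edgeR test gives no SE, so the SE of a fold change was taken as its size divided by the square root of the F statistic. DESeq2 1.42.0, its size factors, other filters, the replicate block, 1 joint fit and leaving out each library were the alternatives. The script was tested on simulated counts. With 3 against 3 libraries an exact permutation test cannot go below p = 0.1. Replicates of the same label were distinct libraries, since counts of each pair of the same label differed by a chi-square of 19.1 or more per gene, where sampling noise gives about 1. Pairs of different labels were not compared in this way.

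The members and gene lists were chosen with earlier results of these data known. Named are the 10 members, listed genes that reach 16 CPM, genes within 100 kb of the chromosome 19 cluster and the 5 genes closest in profile. The genes under 16 CPM that are named, among them the low granule and marker genes, were chosen after their values were seen. A library was called *CD34*-expressing from 10 CPM of *CD34*. Promoters are from RefSeq (5 of 10 members matched), and gene coordinates are those of the count tables. Python 3.11.15 with pandas 2.3.3 and matplotlib 3.10.9 was used.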

Additional observations from a re-analysis of the deposited data

How the results depend on the processing

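Of 451 alternative values for the 3 comparisons and the 10 members in each, 410 kept their direction and their side of the threshold, 19 passed the threshold with the same direction, 5 were counts of genes that moved and 17 reversed. A value without an adjusted p was counted as not passing. Where edgeR called 0, DESeq2 called 1163 (Kasumi-1), 372 (SKNO-1) and 127 genes (difference between the lines). With 1 library left out, Kasumi-1 had 0 to 4250 called genes and SKNO-1 had 0 to 2535, the highest without the third library labelled Kasumi-1 siMM-mod and the first labelled SKNO-1 siRE-mod, and stayed at 0 for the difference. Replicate numbers did not pair the libraries, with correlations of the deviations of same-numbered libraries from -0.27 to -0.01. With the replicate block 0 genes were called in each comparison, and 1763 (Kasumi-1), 1133 (SKNO-1) and 21 genes (difference) had an unadjusted p under 0.05.

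Directions that depend on the setting concern *BPI* above all (log2 fold changes). In Kasumi-1, *BPI* was at 1.26 with the replicate block and ran from -4.84 to 2.39 with 1 library left out, positive without the second library labelled siMM-mod. In SKNO-1, *BPI* was at -0.0047 in DESeq2, -0.0053 with its size factors and -0.25 with the block, and ran from -3.46 to 5.89 with 1 library left out. For the difference it was at -1.51 with the block and ran from -2.39 to 10.10. *CTSG* in SKNO-1 ran from -5.70 to 1.19, *MS4A3* in SKNO-1 from -4.09 to 2.74 and *CST7* for the difference from -0.22 to 4.56 with 1 library left out. The cause was not tested. The lowest levels of *BPI*, *CST7* and *CTSG* rest on 35, 39 and 559 reads, and the part of depth in these directions was not tested.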
